A study of Oryctolagus cuniculus with 27 samples.

Results

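Aortic valve cusps of rabbits that had eaten a high-cholesterol, high-vitamin D diet for 7 weeks were compared with cusps after 2 weeks of the same diet. The comparison used 8 of the 27 RNA libraries of the study, 4 per duration, chosen by the duration in their titles. All were from wild-type male New Zealand rabbits fed 1% cholesterol with 3500 IU of ergocalciferol (vitamin D2), which is used to bring on early valve stenosis. Each library held 1 cusp of 1 animal, and the age of the animals was not given. The 8 libraries came from 8 animals, so the comparison is between animals and not along the course of one. The other 19 libraries were 4 valves at 4 weeks of diet, 4 valves on normal chow, 5 ascending aortas and 6 left ventricular myocardia. They entered no test of the 2 durations, and their values are given as context. Titles give 7 weeks for most control valves and 2 weeks for the rest, but the labels differ on how long these animals were kept. The control valves are therefore treated as 1 group, and their median cannot separate time kept from diet. The 3 myocardia from animals on the diet came from animals of the 7-week valves, and 1 aorta came from an animal of the 2-week valves.

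The aortic valve cusp is a thin sheet of collagen, proteoglycan and elastic fibres kept by valve interstitial cells and covered by endothelium. Interstitial cells can take on contractile, myofibroblast-like or bone-like programs, and TGF-beta, NOTCH and WNT signals are known to act on them. In hypercholesterolaemia, lipid collects in the cusp and monocytes enter it and become macrophages, some of them lipid-laden. Vitamin D excess raises calcium and phosphate and is known to promote calcification of soft tissue.

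The level of a gene is its CPM, its expected count scaled to the total of its library in counts-per-million. Differences are log2 fold changes at 7 weeks minus 2 weeks from edgeR's quasi-likelihood fit on the 8 libraries, each with its standard error (SE). A gene was called where its p, adjusted by Benjamini and Hochberg over all tested genes, was under 0.05. Totals ran from 8451888 to 16496819 counts at 7 weeks and from 12921601 to 19993269 at 2 weeks, and 7-week library 2 was the shallowest. Log CPM values of libraries correlated at 0.832 to 0.943 between the groups, at 0.899 to 0.961 within 7 weeks and at 0.952 to 0.97 within 2 weeks. The first principal component, with 52.8% of the variance, placed all 7-week libraries on one side and all 2-week libraries on the other. On it 7-week libraries 1 to 4 stood at -11.58, -78.56, -33.2 and -56.3, and the 2-week libraries at 32.67 to 56.23. Within 7 weeks this was the order of the heart muscle shares given below, with library 1 nearest the 2-week group. What sets this component was not tested. The sample numbers in the library names run from 1 to 4 at 7 weeks and from 27 to 30 at 2 weeks, and if the groups were prepared or sequenced apart, that cannot be told apart from the duration.

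Counts in marker genes of heart muscle and of smooth muscle differed between the durations. Genes of the cardiomyocyte list took 1.274%, 5.679%, 2.417% and 4.1% of the counts in 7-week libraries 1 to 4, and 0.2822%, 0.9604%, 0.4011% and 0.5192% in 2-week libraries 1 to 4. The groups did not overlap, and the means were 3.37% ± 1.93 (SD, n = 4) and 0.541% ± 0.296 (SD, n = 4), a difference of 2.83 percentage points with an exact two-sided permutation p = 0.0286, the smallest that 4 against 4 allow. For the ventricular genes alone the difference was 1.32 points (exact permutation p = 0.0857). Smooth muscle and myofibroblast genes went the other way, with 1.615% to 2.647% of the counts at 7 weeks and 4.871% to 7.468% at 2 weeks. Markers of interstitial cells and fibroblasts, the cells the label names, were present in all 8 libraries and overlapped, at 0.7948% to 2.039% and 1.625% to 2.552%. Their lowest share was in 7-week library 2, which also had the largest heart muscle share. In bulk RNA, fewer cells of a type and less RNA per cell cannot be told apart. Contractile genes can be made by aortic wall and by interstitial cells of the cusp, and which made them here was not measured.

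**Figure D1:**
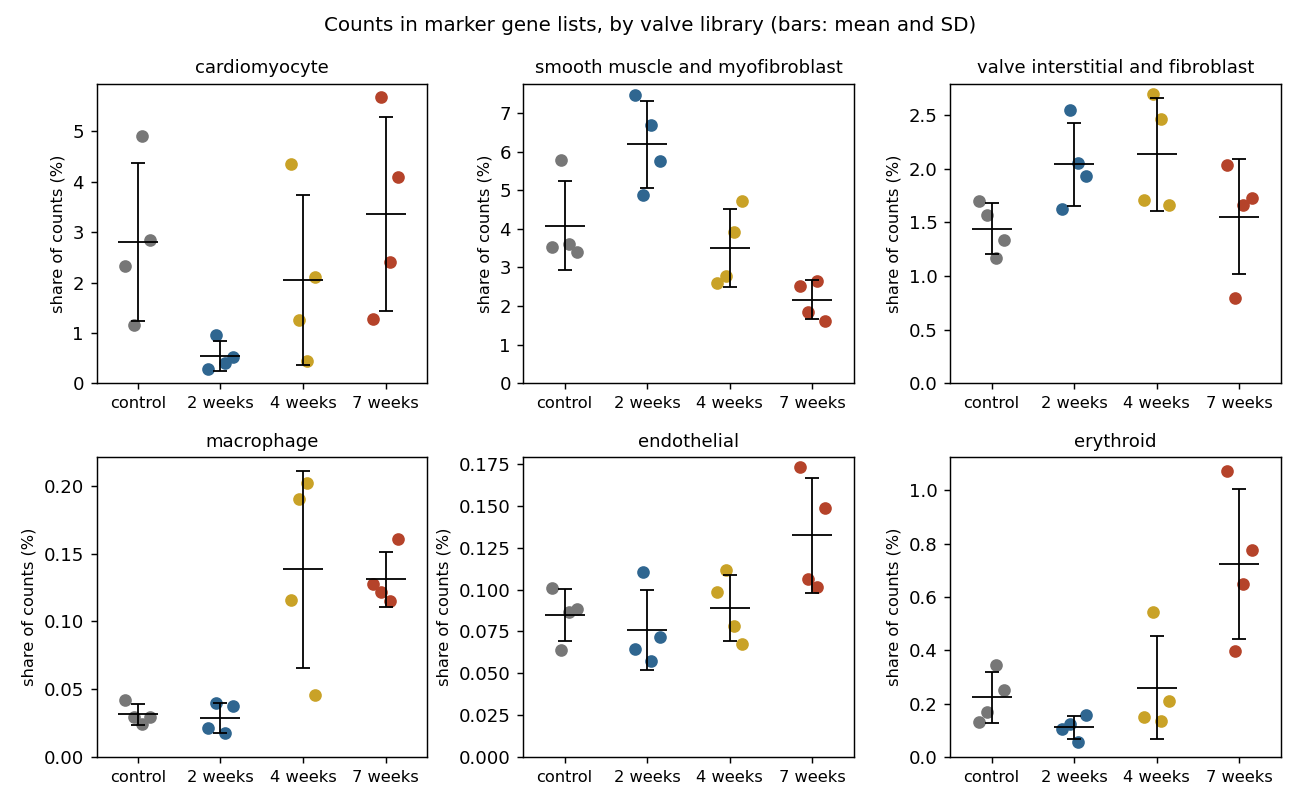
Share of each valve library's counts (%) in 6 lists of marker genes, with 1 point per library and bars for the mean and SD of 4 libraries in control, 2-week, 4-week and 7-week valves. The 7-week libraries lie above the 2-week libraries for cardiomyocyte, macrophage and erythroid genes and below them for smooth muscle genes, with no overlap in these 4 panels.

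Of 31000 genes listed, 14960 were tested and 3007 were called, which is 20.1% of those tested. At 7 weeks 1767 were higher (11.8%) and 1240 were lower (8.29%), and 1385 of the higher and 579 of the lower changed at least 2-fold. The shares of 11.8% and 8.29% are the background for the counts of called list members below. The median log2 fold change of all tested genes was 0.02. All 4 libraries of one duration lay above all 4 of the other for 3096 genes (20.7% of those tested, with 12.8% higher and 7.88% lower), and 2369 of these were called. The number of calls depended on the libraries: it was 4499 without 7-week library 1, 1458 without 7-week library 4, 1460 without 2-week library 1 and 1575 without 2-week library 3. With each library's cardiomyocyte score in the model 1 gene was called, and with its smooth muscle score 0 were called. At an unadjusted p under 0.05 there were 845 and 630 genes, and DESeq2, without a score, called 4242. Both scores lie wholly apart between the groups, so in these fits the duration and the level of these marker genes cannot be told apart. With 1 or the other score the medians of the lymphocyte, neutrophil, cholesterol synthesis, vitamin D, immediate early, NRF2, hypoxia, oxidative phosphorylation, fatty acid oxidation and 3 heart muscle lists changed sign, as did the osteogenic, lysosome, interferon and unfolded protein medians, which lay within 0.12 of 0. Without 7-week libraries 2 and 4 together, those with the most heart muscle, 728 of 15546 tested genes were called (475 higher and 253 lower). Counts from this 6-library fit are given beside the lists that follow, and are to be read against these totals. The fit has fewer animals, and 7-week libraries 1 and 3, at 1.274% and 2.417% heart muscle counts, still lay above all 2-week libraries. Why calls were lost in it was not tested. FGL1, a secreted fibrinogen-like protein and the 1 gene called with the cardiomyocyte score, was singled out after its values were seen. It stood at 9.07, 1.77, 4.57 and 3.33 CPM at 7 weeks and 0.232, 0.133, 0.261 and 0.15005 CPM at 2 weeks, and was at 0 in every aorta and myocardium library.

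The called genes were compared with their levels in myocardium and aorta. Of the genes higher at 7 weeks, 478 (27.1%) had a mean in myocardium at least 2 times that of the 8 valves, against 8.96% of all tested genes. Of the genes lower at 7 weeks, 218 (17.6%) had a mean in aorta at least 2 times that of the 8 valves, against 3.16% of all tested genes, and 0 of the higher genes did. Control valves also carried heart muscle RNA, at 1.147% to 4.903% of their counts. The control median lay nearer the 7-week than the 2-week median for 658 of the 1767 higher genes and 522 of the 1240 lower genes, and the 4-week median for 1428 and 393.

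**Figure D2:**
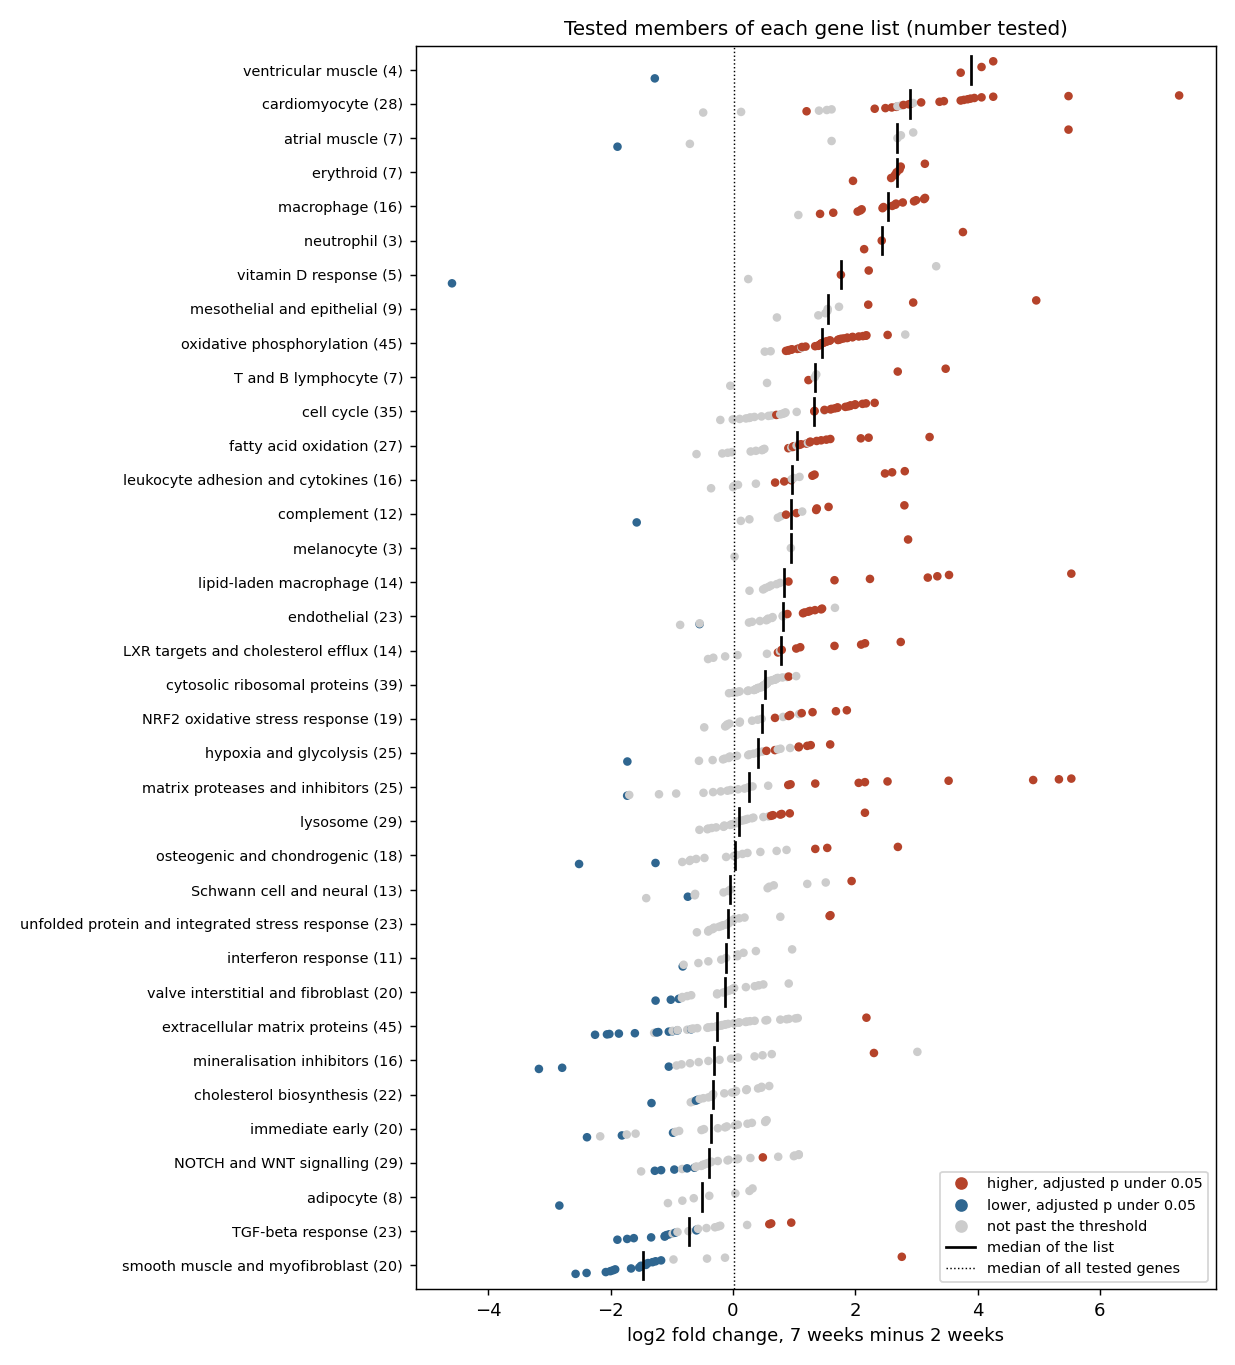
Log2 fold change (7 weeks minus 2 weeks) of each tested member of 36 gene lists, 1 point per gene, with the number of members tested after the list's name. Red and blue points passed the test, black bars are list medians, and the dotted line is the median of all tested genes, 0.02. Macrophage, erythroid, cardiomyocyte and oxidative phosphorylation members lie almost wholly on the higher side and smooth muscle members other than DES on the lower side.

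Macrophage genes were higher at 7 weeks as a group. Of 16 tested members of the macrophage list 15 rose and 0 fell, where 11.8% of all tested genes rose, and the list's median log2 fold change was 2.53. AIF1, a calcium-binding protein of macrophages, stood at 43.1, 37.4, 40.4 and 40.98 CPM in 7-week libraries 1 to 4 and at 6.42, 8.03, 2.94 and 7.102 CPM in 2-week libraries 1 to 4. The 7-week values differed little among themselves and all lay above the 2-week values (log2 fold change 2.78, SE 0.26, adjusted p = 0.00127). CD68, a lysosomal membrane protein of macrophages, had 63.5, 72.4, 70.9 and 99.6 CPM against 10.53, 13.5, 12.003 and 22.6 CPM, again without overlap (log2 fold change 2.45, SE 0.28, adjusted p = 0.00178). CD14, the co-receptor for lipopolysaccharide, had 87.7, 96.1, 74.02 and 121 CPM against 9.67, 13.7, 5.61 and 21.2 CPM (log2 fold change 2.99, SE 0.37, adjusted p = 0.00224). The leukocyte lysosomal protein LAPTM5 was the most abundant of the 4 in counts, at 295, 267, 267 and 412 CPM and 31.96, 67.5, 31.3 and 76.2 CPM (log2 fold change 2.65, SE 0.32, adjusted p = 0.00205). In all 4 of these genes 7-week library 4 was at or near the top and 2-week library 3 at or near the bottom.

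The summed macrophage list took 0.1149% to 0.1606% of the counts at 7 weeks and 0.01762% to 0.03972% at 2 weeks. Control valves had 0.02436% to 0.04236% and 4-week valves 0.04548% to 0.2022%. For all 15 called members the control median lay nearer the 2-week level and the 4-week median nearer the 7-week level. Of all genes called higher, 37.2% had the control median and 80.8% the 4-week median nearer the 7-week level. In myocardium 14 of the 16 had a mean below that of the 2-week valves, against 69.7% of all tested genes and 40.4% of the genes called higher, and in aorta 16 of 16 did, against 68.7% and 93.3%. Leaving out each library in turn gave 14 to 16 called members. Without 7-week libraries 2 and 4, 15 of 17 tested members rose, with a median of 2.11. With the cardiomyocyte score in the model 0 were called and the median was 1.55, and with the smooth muscle score 0 and 1.35. MRC1, the mannose receptor, was the 1 tested member that did not pass (log2 fold change 1.07, adjusted p = 0.051); it passed without 7-week library 3 (adjusted p = 0.0443) or 2-week library 2 (adjusted p = 0.0214).

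Genes known from lipid-laden macrophages rose in part. Of 14 tested members 7 rose and 0 fell, where 11.8% of all tested genes rose, with a median of 0.84. The macrophage lipid receptor TREM2 was at 53.3, 70.5, 58.1 and 81.9 CPM at 7 weeks and 4.88, 7.502, 3.196 and 15.2 CPM at 2 weeks. Every 7-week value lay above every 2-week value by a wide margin (log2 fold change 3.19, SE 0.44, adjusted p = 0.00293). FABP5, a fatty acid carrier, was at 92.2, 47.9, 83.03 and 88.4 CPM against 14.9, 28.02, 7.89 and 16.4 CPM (log2 fold change 2.24, SE 0.297, adjusted p = 0.00257), and 7-week library 2 was the low one of its group. ATP6V0D2, a proton pump subunit of macrophages and osteoclasts, was at 9.59, 2.84, 7.09 and 8.67 CPM against 0.774, 0.266, 0.457 and 0.8503 CPM (log2 fold change 3.53, SE 0.44, adjusted p = 0.00224). SPP1, which encodes osteopontin, a phosphoprotein made by macrophages and by bone-forming cells, overlapped between the groups at 744, 324, 704 and 593 CPM and 149, 450.3, 355 and 487 CPM and did not pass (log2 fold change 0.72, SE 0.32, adjusted p = 0.139). APOE, the apolipoprotein of lipid-loaded macrophages and a target of LXR, was at 1024, 748, 718 and 1164 CPM against 180.1, 178, 228 and 604 CPM (log2 fold change 1.66, SE 0.403, adjusted p = 0.021), and its call was lost without 7-week library 4, 2-week library 1 or 2-week library 3 (adjusted p from 0.0628 to 0.0656). GPNMB, a glycoprotein of phagocytes singled out after its values were seen, was at 133, 80.9, 164 and 432 CPM against 10.3, 16.9, 24.7 and 28.3 CPM (log2 fold change 3.34, SE 0.53, adjusted p = 0.00465), with 7-week library 4 well above the rest.

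Matrix-degrading enzymes held the largest rises of the named genes outside striated muscle. Of 25 tested members of the protease list 10 rose and 1 fell, with a median of 0.26. Of all tested genes 11.8% rose and 8.29% fell. MMP12, the macrophage elastase, was at 81.1, 28.9, 94.6 and 103 CPM at 7 weeks and 1.24, 0.929, 1.17 and 3.05 CPM at 2 weeks. The lowest 7-week library still had several times the level of the highest 2-week library (log2 fold change 5.53, SE 0.46, adjusted p = 0.00127). Control valves ranged widely, from 0.0741 to 49.02 CPM, 4-week valves from 61.4 to 618 CPM, and aorta reached at most 0.320 CPM. MMP9, a gelatinase, was under 1 CPM in every 2-week library, at 0.232, 0.531, 0.261 and 0.7502 CPM, and at 11.6, 9.82, 32.7 and 19.9 CPM at 7 weeks (log2 fold change 5.33, SE 0.49, adjusted p = 0.00127).

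CTSS, the elastolytic cathepsin S, was at 104, 49.9, 85.1 and 109.5 CPM at 7 weeks and 15.6, 25.4, 15.6 and 21.8 CPM at 2 weeks (log2 fold change 2.16, SE 0.201, adjusted p = 0.00127). TIMP1, a secreted inhibitor of metalloproteinases, was at 873, 841, 1203 and 960.1 CPM against 197, 204, 269.8 and 279 CPM (log2 fold change 2.06, SE 0.22, adjusted p = 0.00178). It was low in myocardium, at 5.77 to 15.3 CPM, and at 76.4 to 260.4 CPM in control valves. The collagenases MMP1 and MMP13, singled out after their values were seen, also rose. MMP13 was at 16.6, 0.947, 10.2 and 1.64 CPM against 0.232, 0.398, 0.0652 and 0.2001 CPM (log2 fold change 4.91, SE 0.903, adjusted p = 0.00783), and MMP1 at 19.3, 2.37, 4.37 and 3.15 CPM against 0.542, 0.929, 0 and 0.9003 CPM (log2 fold change 3.53, SE 0.83, adjusted p = 0.0193). The call of MMP1 was lost without 2-week library 1 (adjusted p = 0.0581). Without 2-week library 1, 7 members rose and 0 fell, and without 7-week library 1, 9 rose and 2 fell.

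SPHK1, which makes the lipid mediator sphingosine 1-phosphate, was not in any list and was among the 12 genes with the largest rises. It stood at 16.3, 12.1, 14.2 and 15.3 CPM at 7 weeks and 0.155, 1.26, 0.587 and 1.5005 CPM at 2 weeks (log2 fold change 4.05, SE 0.46, adjusted p = 0.00178), and 4-week valves had 3.8995 to 14.3 CPM. NOS2, the inducible nitric oxide synthase, was singled out after its values were seen because its adjusted p was the smallest of all genes. Its levels were 20.6, 12.2, 18.2 and 18.003 CPM and 1.93, 2.99, 1.89 and 2.85 CPM (log2 fold change 2.85, SE 0.196, adjusted p = 0.000743).

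**Figure D3:**
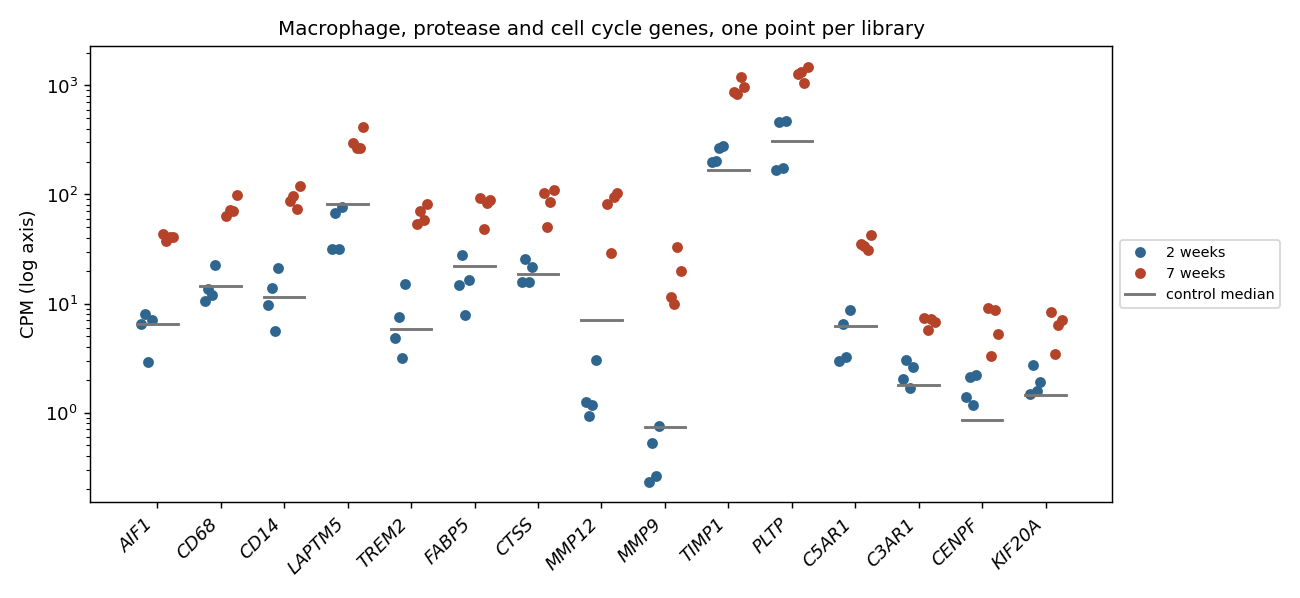
CPM on a log axis of 15 macrophage, protease, lipid transfer, receptor and cell cycle genes, with 1 point per library at 2 weeks (blue) and 7 weeks (red) and a grey line at the median of 4 control valves. In each of the 15 genes all 7-week points lie above all 2-week points.

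Complement and chemotactic receptors followed. Of 12 tested complement genes 6 rose and 1 fell, where 11.8% and 8.29% of all tested genes did, with a median of 0.95. C5AR1, the receptor of the chemotactic fragment C5a, was at 35.5, 33.7, 31.2 and 42.2 CPM at 7 weeks and 2.94, 6.44, 3.26 and 8.65 CPM at 2 weeks (log2 fold change 2.804, SE 0.33, adjusted p = 0.00195). C3AR1, the C3a receptor, was at 7.38, 5.68, 7.22 and 6.79 CPM against 2.01, 3.05, 1.696 and 2.601 CPM (log2 fold change 1.56, SE 0.23, adjusted p = 0.00382), and the protease C1R at 1213, 729, 1041 and 982 CPM against 221, 578, 359 and 414 CPM (log2 fold change 1.36, SE 0.25, adjusted p = 0.00761). All 3 were free of overlap. The 6-library fit had 5 complement genes higher and 0 lower.

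Of 16 tested adhesion molecules, chemokines and cytokines 8 rose and 0 fell, where 11.8% of all tested genes rose, with a median of 0.96. CCL19, a chemokine that draws lymphocytes and dendritic cells, was at 6.14, 5.68, 9.94 and 7.64 CPM at 7 weeks and 1.16, 0.863, 0.522 and 2.75 CPM at 2 weeks (log2 fold change 2.49, SE 0.46, adjusted p = 0.00809). VCAM1, to which monocytes bind, overlapped, at 169, 51.9, 85.5 and 129 CPM against 30.9, 64.3, 27.98 and 48.8 CPM (log2 fold change 1.34, SE 0.303, adjusted p = 0.0168), and its call was lost without 7-week library 4, 2-week library 1 or 2-week library 3 (adjusted p from 0.0508 to 0.0565). ICAM1, another adhesion molecule, also overlapped, at 81.98, 52.4, 73.3 and 80.6 CPM against 33.7, 45.8, 37.7 and 64.3 CPM (log2 fold change 0.69, SE 0.18, adjusted p = 0.0289), and its call was lost without 7-week library 3, 7-week library 4, 2-week library 1, 2-week library 2 or 2-week library 3 (adjusted p from 0.0542 to 0.103). The number of called members was 5 without 7-week library 2 or 7-week library 3, 2 without 7-week library 4 and 4 without 2-week library 1 or 2-week library 3. It was 1 of 17 in the 6-library fit without 7-week libraries 2 and 4, where 475 of 15546 tested genes rose. IL1B was too low to be tested.

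Lymphocyte and neutrophil markers rose from low levels. Of 7 tested lymphocyte genes 3 rose and 0 fell. The B cell receptor chain CD79A was at 4.504, 3.31, 3.58 and 6.18 CPM against 0.232, 0.597, 0.196 and 0.5502 CPM (log2 fold change 3.48, SE 0.41, adjusted p = 0.00198), and the interleukin 7 receptor IL7R at 5.29, 3.67, 4.44 and 4.91 CPM against 0.542, 1.39, 0.261 and 0.7002 CPM (log2 fold change 2.69, SE 0.41, adjusted p = 0.00441). JCHAIN, the joining chain of secreted immunoglobulins, was at 14.5, 8.16, 24.6 and 18.2 CPM against 6.66, 7.303, 7.05 and 6.65 CPM (log2 fold change 1.24, SE 0.26, adjusted p = 0.0125). All 3 tested neutrophil genes rose, of 10 in the list. A gene low at 2 weeks passes the filter on low counts only through its 7-week libraries, so this count is partly built in. Without that filter 4 of 8 neutrophil and 3 of 15 lymphocyte genes were called higher and 0 lower. S100A8 was at 3.002, 14.7, 1.59 and 3.46 CPM against 0.232, 0.199, 0.391 and 1.0003 CPM (log2 fold change 3.76, SE 0.91, adjusted p = 0.0209), with 7-week library 2 far above the rest. Its log2 fold change without that library was 2.40, and its call was lost without 2-week library 1 or 2-week library 3 (adjusted p from 0.0585 to 0.0633). S100A9 (2.43, SE 0.62, adjusted p = 0.0245) and the chemokine receptor CXCR2 (2.15, SE 0.496, adjusted p = 0.0178) lost their calls without 2-week library 1, 2-week library 2 or 2-week library 3 (adjusted p from 0.0539 to 0.0621) and without 7-week library 4 or 2-week library 3 (adjusted p from 0.0534 to 0.0553). Without 2-week library 3 none of the 3 was called, and without 7-week library 3, 5 of 5 tested neutrophil genes were. In myocardium 1 of the 7 lymphocyte and 0 of the 3 neutrophil genes had a mean below that of the 2-week valves. The share was 69.7% of all tested genes and 40.4% of those called higher, since a gene called higher has a low 2-week level. Against the mean of the 8 valves, 1 lymphocyte and 0 neutrophil genes were at least 2 times higher in myocardium, as were 8.96% of all tested genes. The 6-library fit called 0 of 3 neutrophil and 3 of 8 lymphocyte genes.

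Genes of cholesterol export rose in part. Of 14 tested targets of the sterol sensor LXR and efflux genes 8 rose and 0 fell, with a median of 0.78. Of all tested genes 11.8% rose. PLTP, the phospholipid transfer protein, was at 1265, 1338, 1043 and 1487 CPM at 7 weeks and 168, 466, 173 and 476 CPM at 2 weeks (log2 fold change 2.097, SE 0.38, adjusted p = 0.00732). ABCG1, a cholesterol exporter, was at 21.8, 14.2, 13.3 and 28.5 CPM against 3.33, 5.05, 2.28 and 7.202 CPM (log2 fold change 2.16, SE 0.36, adjusted p = 0.00554). The phospholipid-remodelling enzyme LPCAT3 was at 39.4, 30.1, 39.5 and 40.1 CPM against 18.8, 25.2, 25.4 and 21.3 CPM (log2 fold change 0.74, SE 0.15, adjusted p = 0.0116). NR1H3, which encodes LXR alpha, was at 43.1, 39.8, 28.9 and 40.7 CPM against 16.5, 26.2, 13.2 and 22.01 CPM (log2 fold change 1.04, SE 0.23, adjusted p = 0.0158), and its call was lost without 2-week library 1 (adjusted p = 0.0526). ABCA1, the exporter that loads apolipoprotein A-I, overlapped at 94.2, 37.6, 40.7 and 65.7 CPM and 19.8, 40.5, 17.4 and 34.4 CPM (log2 fold change 1.101, SE 0.29, adjusted p = 0.0286), with the call lost without 7-week library 4, 2-week library 1 or 2-week library 3 (adjusted p from 0.0754 to 0.0856). Without 7-week library 4, 2-week library 1 or 2-week library 3, 4 members were called, and without 7-week libraries 2 and 4 together, 1 of 14.

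Of 22 tested cholesterol synthesis and uptake genes 0 rose and 3 fell, where 8.29% of all tested genes fell, and the median was -0.33. The synthesis enzymes LSS (-0.604, SE 0.14, adjusted p = 0.0203) and FDFT1 (-0.58, SE 0.15, adjusted p = 0.0288) did not overlap but lost their calls without 7-week library 4, 2-week library 1 or 2-week library 3 (adjusted p from 0.0538 to 0.0625) and without 7-week library 2, 7-week library 4, 2-week library 1 or 2-week library 3 (adjusted p from 0.0543 to 0.0849). HMGCS1, the synthase just upstream of HMG-CoA reductase, was at 21.7, 11.003, 18.8 and 16.97 CPM against 32.04, 26.3, 31.2 and 16.3 CPM and did not pass (log2 fold change -0.65, SE 0.25, adjusted p = 0.089), although it passed without 2-week library 4 (adjusted p = 0.0244). Without 7-week library 4, 2-week library 1 or 2-week library 3 none of the list was called, without 7-week library 2, 1 was, and without 7-week library 1, 3 fell and 1 rose. In the 6-library fit 0 were called.

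Lysosome genes rose in a minority, 6 of 29 tested against 11.8% of all tested genes, with 0 lower and a median of 0.09. CTSS, described above, was the largest of them. GUSB, beta-glucuronidase, was at 61.7, 45.7, 52.5 and 69.04 CPM against 27.6, 35.7, 38.1 and 34.4 CPM (log2 fold change 0.77, SE 0.16, adjusted p = 0.0128). The sterol carrier NPC2 was at 98.5, 105, 113 and 111 CPM against 70.7, 54.04, 60.5 and 67.7 CPM (log2 fold change 0.799, SE 0.19, adjusted p = 0.0189), and its call was lost without 7-week library 4 or 2-week library 3 (adjusted p from 0.0516 to 0.0565). Cathepsin H (CTSH) overlapped (log2 fold change 0.66, SE 0.16, adjusted p = 0.0221), with the call lost without 7-week library 4, 2-week library 1 or 2-week library 4 (adjusted p from 0.0558 to 0.0746). The list's count was 2 without 7-week library 4 and 3 without 2-week library 1 or 2-week library 3, and without 7-week library 1, 7 rose and 1 fell. In the 6-library fit it was 1, with a median of -0.0481.

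Many genes of the cell division cycle were higher at 7 weeks, while their summed share of counts overlapped. That share was 0.01506% to 0.03674% at 7 weeks and 0.01489% to 0.02083% at 2 weeks. Of 35 tested members 18 rose and 0 fell, where 11.8% of all tested genes rose, with a median of 1.33. In 13 of the 35 the groups did not overlap, against 20.7% of all tested genes in either direction. KIF20A, a mitotic kinesin, was at 8.35, 3.43, 6.295 and 7.03 CPM at 7 weeks and 1.47, 2.72, 1.57 and 1.901 CPM at 2 weeks. CENPF, a kinetochore protein, was at 9.14, 3.31, 8.75 and 5.27 CPM against 1.39, 2.12, 1.17 and 2.201 CPM. Cyclin B2 (CCNB2) was at 5.35, 3.31, 3.38 and 4.49 CPM against 0.619, 1.66, 1.24 and 1.15 CPM. None of these overlapped, and 7-week library 2, the one with the most heart muscle, was the lowest of its group in each. Log2 fold changes were 1.71, SE 0.27 for KIF20A, 1.92, SE 0.31 for CENPF and 1.84, SE 0.32 for CCNB2, with adjusted p from 0.00478 to 0.00698. The spindle checkpoint kinase BUB1B was at 5.03, 1.66, 2.92 and 2.79 CPM against 0.3096, 1.06, 0.522 and 0.8003 CPM (log2 fold change 2.18, SE 0.398, adjusted p = 0.00768).

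In myocardium 33 of the 35 division genes had a mean below that of the 2-week valves. The share was 69.7% of all tested genes and 40.4% of those called higher. In aorta 35 of 35 did, against 68.7% and 93.3%. For all 18 called members the control median lay nearer the 2-week level and the 4-week median nearer the 7-week level. Among all genes called higher the 4-week median lay nearer the 7-week level in 80.8% and the control median in 37.2%. Leaving out each library in turn gave 13 to 21 called members. Without 7-week libraries 2 and 4 together, 12 of 38 tested members rose, with a median of 1.59. With the cardiomyocyte score in the model 0 were called and the median was 1.27. Which cells of the cusp carried these transcripts was not measured.

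Contractile genes fell as a group. Of 20 tested smooth muscle and myofibroblast genes 16 fell and 1 rose, with a median of -1.46, where 8.29% of all tested genes fell. In 17 of the 20 all 7-week libraries lay below all 2-week libraries, against 7.88% of all tested genes. ACTA2, smooth muscle actin, was at 4398, 3284, 5179 and 2296 CPM at 7 weeks and 13975, 10686, 19174 and 13472 CPM at 2 weeks (log2 fold change -1.92, SE 0.35, adjusted p = 0.00745). Control valves ranged from 6082 to 11828 CPM, above the 7-week values and overlapping the 2-week values. LMOD1, leiomodin, an actin nucleator of smooth muscle, was at 646, 418, 668 and 268 CPM against 2536, 1427, 1840.00 and 1932 CPM (log2 fold change -1.96, SE 0.32, adjusted p = 0.00521). Smoothelin (SMTN) was at 725, 527, 818 and 374 CPM against 2352, 1543, 1840.5 and 2033 CPM (log2 fold change -1.66, SE 0.28, adjusted p = 0.00556), and the focal adhesion protein TNS1 at 1165, 600.5, 1108 and 754 CPM against 2852, 2165, 2247 and 2102 CPM (log2 fold change -1.39, SE 0.23, adjusted p = 0.00525). In these 4 genes 7-week library 2 or 4 was the lowest.

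The 1 member that rose was DES, desmin, which heart muscle also makes. It was at 573, 1283, 646 and 2226 CPM against 167, 249, 194 and 135 CPM (log2 fold change 2.76, SE 0.495, adjusted p = 0.00731) and at 613 to 2737 CPM in myocardium. Aorta, which is rich in smooth muscle, had ACTA2 at 12292 to 15305 CPM. For 12 of the 20 genes the aortic mean was at least 2 times that of the 8 valves, against 3.16% of all tested genes. How much aortic wall each cusp carried was not measured. For 9 of the 16 members that fell the 4-week median lay nearer the 7-week level, and for 4 the control median did. Over all genes called lower, these shares were 31.7% and 42.1%. Between 12 and 17 members fell when 1 library was left out, and without 7-week libraries 2 and 4 together 8 of 20 fell and 1 rose.

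Several elastic fibre genes fell, and the fibrillar collagens COL1A1 and COL3A1 did not pass. Of 45 tested matrix genes 11 fell and 1 rose, with a median of -0.26. Of all tested genes 8.29% fell and 11.8% rose. FBLN5, fibulin 5, which guides elastic fibre assembly, was at 363, 193, 312 and 236 CPM at 7 weeks and 1067, 1111, 1785 and 1224 CPM at 2 weeks (log2 fold change -2.25, SE 0.25, adjusted p = 0.00178). ELN, elastin, was at 1619.9, 1322, 1119 and 576 CPM against 4969.5, 3799.8, 7216 and 3506 CPM (log2 fold change -2.06, SE 0.41, adjusted p = 0.0105), with the control valves from 768 to 2206 CPM. LOX, which crosslinks elastin and collagen, was at 185, 48.7, 83.2 and 69.8 CPM against 301, 326, 592 and 266 CPM (log2 fold change -2.02, SE 0.39, adjusted p = 0.00914). HAPLN1, the link protein of hyaluronan and aggrecan or versican, was at 40.7, 24.3, 59.2 and 28.3 CPM against 77.4, 95.8, 98.8 and 87.03 CPM (log2 fold change -1.25, SE 0.22, adjusted p = 0.00711). In all 4 genes every 7-week library lay below every 2-week library.

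The member that rose was TNC, tenascin C, a matrix protein of injured and remodelling tissue, at 253, 61.1, 153 and 165 CPM against 30.1, 52.4, 23.6 and 30.5 CPM (log2 fold change 2.18, SE 0.32, adjusted p = 0.00362). FBN1, the microfibril protein fibrillin 1, overlapped (log2 fold change -1.05, SE 0.28, adjusted p = 0.0299), and its call was lost without 7-week library 2, 7-week library 3, 7-week library 4, 2-week library 1, 2-week library 2 or 2-week library 3 (adjusted p from 0.0566 to 0.0871). COL1A1 was at 4872, 1236, 3592 and 3931 CPM against 2357, 5104, 2532 and 3243 CPM, with a log2 fold change of 0.02, SE 0.34. COL3A1 (-0.75, SE 0.37) and the proteoglycan VCAN (-0.58, SE 0.27) did not pass either, with adjusted p = 0.178 and 0.154, although VCAN passed without 7-week library 1 (log2 fold change -0.93, adjusted p = 0.0139). In COL1A1, COL3A1 and VCAN alike 7-week library 2 was the lowest of all 8. For 7 of the 11 matrix genes that fell the control median lay nearer the 7-week level, against 42.1% of all genes called lower. Without 7-week library 4, 2-week library 1 or 2-week library 3, 7 matrix genes fell, and without 7-week library 2 or 2-week library 2, 8 fell and 2 or 3 rose. Without 7-week libraries 2 and 4 together, 2 fell.

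**Figure D4:**
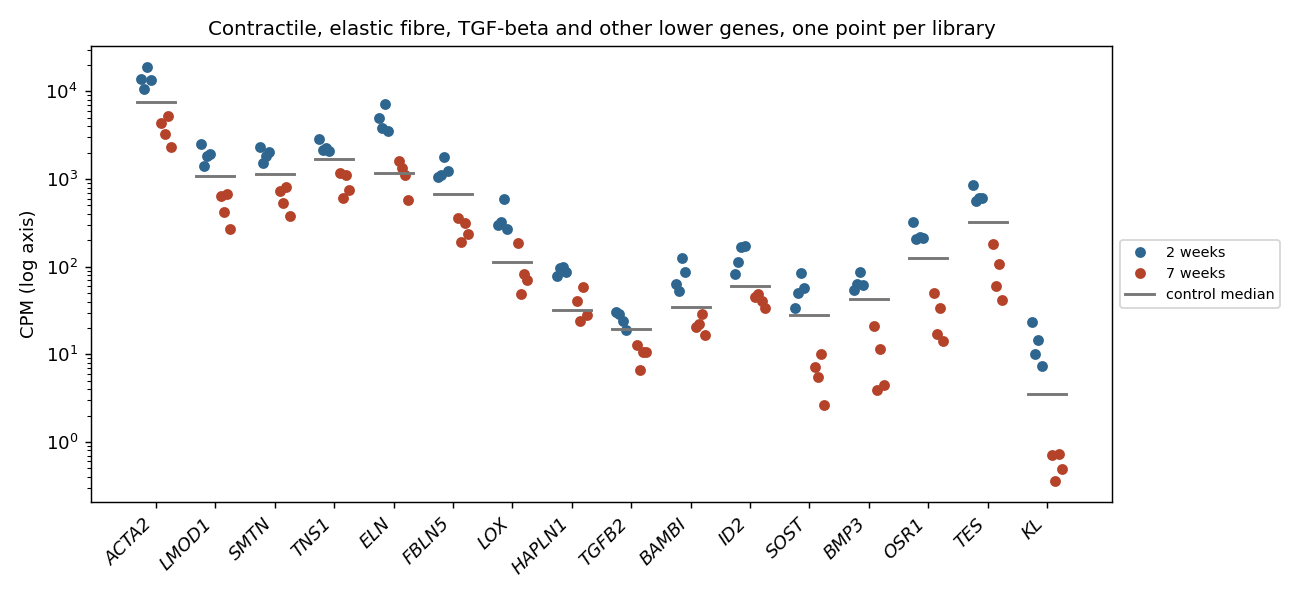
CPM on a log axis of 16 genes lower at 7 weeks, with 1 point per library at 2 weeks (blue) and 7 weeks (red) and a grey line at the median of 4 control valves. In each of the 16 genes the 7-week points lie below the 2-week points, and in 12 of them the control median lies between the groups; it lies within the 7-week range for ELN, LOX and HAPLN1 and within the 2-week range for TGFB2.

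Among components of TGF-beta signalling and its targets more fell than rose. Of 23 tested members 11 fell and 3 rose, with a median of -0.72. Of all tested genes 8.29% fell and 11.8% rose, so the rises were near the share of all genes. The ligand TGFB2 was at 12.9, 6.63, 10.6 and 10.6 CPM at 7 weeks and 30.2, 29.1, 24.1 and 19.1 CPM at 2 weeks (log2 fold change -1.34, SE 0.197, adjusted p = 0.00377). The transcriptional inhibitor SKI was at 130.02, 56.4, 126 and 123 CPM against 241, 255, 200.2 and 237 CPM (log2 fold change -1.11, SE 0.19, adjusted p = 0.00562). BAMBI, a decoy receptor that is itself a target of the pathway, was at 20.4, 22.01, 28.8 and 16.5 CPM against 63.8, 53.2, 125 and 86.4 CPM (log2 fold change -1.89, SE 0.32, adjusted p = 0.00636). The target ID2 was at 44.9, 49.1, 40.8 and 33.6 CPM against 82.9, 112, 169.8 and 172 CPM (log2 fold change -1.62, SE 0.295, adjusted p = 0.00761). The receptor TGFBR1 and the inhibitory SMAD7 and SKIL fell too (-1.08, SE 0.25, -0.596, SE 0.16 and -1.04, SE 0.21), so the members that fell include a ligand, a receptor, targets and inhibitors. The call of TGFBR1 was lost without 7-week library 4 (adjusted p = 0.0564) and that of SMAD7 without 7-week library 2, 7-week library 3, 2-week library 1, 2-week library 2, 2-week library 3 or 2-week library 4 (adjusted p from 0.0534 to 0.081).

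The 3 TGF-beta members that rose were the ligand TGFB1 (0.95, SE 0.26), the secreted target TGFBI (0.63, SE 0.16) and the repressor TGIF1 (0.596, SE 0.18), with adjusted p = 0.0299, 0.0228 and 0.0444. The call of TGFB1 was lost without 7-week library 2, 7-week library 3, 7-week library 4, 2-week library 1 or 2-week library 2 (adjusted p from 0.0534 to 0.0879), that of TGFBI without 7-week library 4, 2-week library 1 or 2-week library 3 (adjusted p from 0.0733 to 0.086), and that of TGIF1 without 7-week library 1, 7-week library 2, 7-week library 3, 7-week library 4, 2-week library 1, 2-week library 2, 2-week library 3 or 2-week library 4 (adjusted p from 0.0523 to 0.125). BAMBI and ID2 are abundant in aorta, at 82.4 to 176 and 141 to 299 CPM, and low in myocardium, at 0.604 to 2.76 and 1.93 to 5.699 CPM. For 9 of the 11 that fell the control median lay nearer the 7-week level, against 42.1% of all genes called lower. Without 7-week library 2, 8 members fell and 1 rose, and without 7-week library 3 or 4 or any 1 of the 2-week libraries, 7 fell and 0 to 2 rose. The 6-library fit had 5 lower and 0 higher.

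Of 29 tested NOTCH and WNT genes 5 fell and 1 rose, where 8.29% and 11.8% of all tested genes did, with a median of -0.40. HEY2, a NOTCH target, was at 40.3, 18.8, 37.5 and 30.7 CPM at 7 weeks and 75.5, 72.3, 85.7 and 70.6 CPM at 2 weeks (log2 fold change -1.28, SE 0.17, adjusted p = 0.00258). AXIN2, a WNT target, was at 17.5, 6.63, 18.8 and 15.5 CPM against 39.5, 33.9, 28.8 and 27.4 CPM (log2 fold change -1.17, SE 0.23, adjusted p = 0.0108), and the WNT co-receptor LRP5 at 89.2, 42.9, 82.3 and 78.5 CPM against 122, 142, 96.4 and 131 CPM (log2 fold change -0.75, SE 0.16, adjusted p = 0.0135). The receptor NOTCH2 was at 101, 52.8, 81.97 and 84.5 CPM against 129, 144, 108 and 113 CPM (log2 fold change -0.63, SE 0.14, adjusted p = 0.0176), and its call was lost without 2-week library 1 (adjusted p = 0.0565). The 7-week libraries were below the 2-week libraries in all 4 genes. NOTCH1, in which loss-of-function variants are known to cause valve disease in people, overlapped at 8.16, 1.66, 2.45 and 3.82 CPM and 4.33, 12.7, 2.35 and 3.45 CPM (log2 fold change -0.498, SE 0.55, adjusted p = 0.534). The list's counts were 8 lower and 1 higher without 7-week library 1, 5 lower and 2 higher without 2-week library 2, and 4 or 5 lower and 0 higher without any other library, and 2 lower and 0 higher without 7-week libraries 2 and 4 together.

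Few bone-related genes changed. Of 18 tested osteogenic and chondrogenic genes 3 rose and 2 fell, shares near the 11.8% and 8.29% of all tested genes, with a median of 0.04. ALPL, the phosphatase that removes the mineralisation inhibitor pyrophosphate, was at 13.1, 13.3, 14.05 and 14.4 CPM at 7 weeks and 2.63, 7.37, 4.76 and 7.65 CPM at 2 weeks (log2 fold change 1.35, SE 0.302, adjusted p = 0.0161). RUNX2, the master transcription factor of osteoblasts, overlapped at 4.37, 1.54, 2.32 and 5.94 CPM and 0.929, 1.73, 0.652 and 1.601 CPM (log2 fold change 1.54, SE 0.44, adjusted p = 0.0373), and its call was lost without 7-week library 1, 7-week library 4, 2-week library 1, 2-week library 2, 2-week library 3 or 2-week library 4 (adjusted p from 0.0513 to 0.126). IBSP, bone sialoprotein, was low, at 3.72, 0.7099, 0.729 and 3.88 CPM against 0.387, 0.266, 0.196 and 0.5002 CPM (log2 fold change 2.697, SE 0.63, adjusted p = 0.0189), and its call was lost without 7-week library 4, 2-week library 1 or 2-week library 3 (adjusted p from 0.0526 to 0.0625).

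BGLAP, osteocalcin, fell, at 1.37, 1.302, 1.52 and 0.909 CPM against 4.18, 3.85, 5.15 and 16.6 CPM (log2 fold change -2.51, SE 0.52, adjusted p = 0.012). BMP2 (0.45, SE 0.31, adjusted p = 0.309) and SOX9 (-0.83, SE 0.45, adjusted p = 0.207) did not pass, although SOX9 passed without 7-week library 1 (log2 fold change -1.46, adjusted p = 0.0151). BMP2 was at 12.7, 7.69, 9.28 and 3.82 CPM against 5.96, 6.11, 6.197 and 6.25 CPM, and SOX9 at 14.03, 1.77, 5.43 and 4.12 CPM against 10.2, 16, 6.65 and 10.7 CPM, so both overlapped. The list's count of higher members was 1 without 7-week library 4, 2-week library 1 or 2-week library 3, and 2 without 2-week library 4. Its count of lower members was 1 without any 1 of 7-week libraries 2, 3 and 4 or 2-week libraries 1, 2, 3 and 4, and without 7-week libraries 2 and 4 together 0 of 19 were called.

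Of 16 tested members of a list of inhibitors of mineralisation or of bone formation 3 fell and 1 rose, with a median of -0.31. Of all tested genes 8.29% fell and 11.8% rose. SOST, sclerostin, a secreted WNT antagonist, was at 7.18, 5.44, 10.01 and 2.61 CPM at 7 weeks and 34.1, 50.1, 84.7 and 56.97 CPM at 2 weeks (log2 fold change -3.17, SE 0.41, adjusted p = 0.00249). BMP3, which opposes bone-forming BMPs, was at 21.02, 3.905, 11.5 and 4.43 CPM against 54.5, 64.1, 87.9 and 62.5 CPM (log2 fold change -2.79, SE 0.43, adjusted p = 0.00453). Both are low in myocardium, at 0.215 to 2.47 and 0.0588 to 1.62 CPM, and both were below all control valves, which had 22.2 to 31.7 CPM of SOST and 37.7 to 51.6 CPM of BMP3. The third list member to fall was FBN1, the microfibril protein given above, whose groups overlapped and whose call was lost without most single libraries. GREM1, a secreted BMP antagonist, rose (log2 fold change 2.31, SE 0.58, adjusted p = 0.024) but overlapped, at 8.42, 2.48, 4.37 and 1.21 CPM against 0.851, 0.863, 0.261 and 1.25 CPM, and its call was lost without 2-week library 1, 2-week library 2 or 2-week library 3 (adjusted p from 0.0511 to 0.0627).

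Matrix Gla protein (MGP), the main local inhibitor of soft-tissue calcification, was abundant and overlapped, at 2597, 2755, 3910.2 and 3690.00 CPM and 1928, 2572, 4488 and 3446 CPM (log2 fold change 0.08, SE 0.32, adjusted p = 0.873). ENPP1, which makes pyrophosphate, had a log2 fold change of -0.701, SE 0.35 (adjusted p = 0.177). TNFRSF11B, osteoprotegerin, had one of -0.56, SE 0.31 (adjusted p = 0.216). Without 2-week library 1, 2 or 3 the inhibitor list had 2 lower and 0 higher members, and without 7-week library 2, or 7-week libraries 2 and 4 together, it had 2 of each.

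KL, klotho, a co-receptor for the phosphate hormone FGF23, had the largest fall of the named genes. It was at 0.718, 0.355, 0.729 and 0.485 CPM at 7 weeks and 23.7, 9.96, 14.5 and 7.303 CPM at 2 weeks (log2 fold change -4.59, SE 0.46, adjusted p = 0.00157). Every 7-week library was under 1 CPM and every 2-week library above 7 CPM. Control valves had 2.21 to 12.2 CPM, 4-week valves 1.28 to 8.84 CPM, aorta 12.9 to 19.6 CPM and myocardium 0.269 to 0.7505 CPM. KL was 1 of 5 tested vitamin D response genes, of which 2 rose and 1 fell. The fit without 7-week libraries 2 and 4 had 0 higher and 1 lower.

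The vitamin D receptor VDR was at 4.44, 3.31, 5.83 and 3.64 CPM at 7 weeks and 0.697, 1.59, 0.783 and 2.05 CPM at 2 weeks (log2 fold change 1.77, SE 0.36, adjusted p = 0.0121). FGF23 itself was at 2.55, 3.31, 1.46 and 15.3 CPM against 0, 0.332, 0 and 1.901 CPM and did not pass (log2 fold change 3.32, SE 1.16, adjusted p = 0.0703), although it passed without 2-week library 4 (adjusted p = 0.0289). LRP2, megalin, which takes up vitamin D with its binding protein, was at 9.59, 9.702, 6.36 and 13.3 CPM against 1.08, 4.71, 1.04 and 2.05 CPM (log2 fold change 2.22, SE 0.48, adjusted p = 0.0137). VDR and LRP2 were low and free of overlap, and both kept their calls without any single library. VDR in control valves was at 0.926 to 3.41 CPM and in myocardium at 0.5602 to 6.95 CPM.

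Heart muscle genes were higher at 7 weeks, as the shares above showed. Of 28 tested cardiomyocyte genes 20 rose and 0 fell, with a median of 2.89, although the table is the one from which the authors had removed 346 genes as myocardial. NPPB, the natriuretic peptide BNP, had the largest rise of the named genes, at 386, 3068, 289 and 1264 CPM at 7 weeks and 2.48, 7.37, 2.74 and 26.01 CPM at 2 weeks (log2 fold change 7.29, SE 1.24, adjusted p = 0.00604). Myocardium libraries had 48.8 to 2702 CPM and control valves 51.9 to 449.8 CPM. Skeletal-type actin (ACTA1) was at 872, 3816, 412 and 5151 CPM against 20.04, 49.4, 74.1 and 100.4 CPM (log2 fold change 5.55, SE 0.96, adjusted p = 0.00659). In both genes 7-week libraries 2 and 4 were the highest, as for the cardiomyocyte share.

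The other striated muscle genes among the 12 largest rises were DUSP13, LMOD2, ENO3, ABRA, TRIM54, TNNI1 and NPPA. LMOD2, the cardiac leiomodin, was at 143, 322, 140.5 and 443 CPM against 6.66, 35.6, 10.96 and 17.3 CPM (log2 fold change 4.04, SE 0.62, adjusted p = 0.00453). Muscle enolase (ENO3) was at 306, 1812, 392 and 1141 CPM against 17.3, 64.99, 41.6 and 63.97 CPM (log2 fold change 4.499, SE 0.76, adjusted p = 0.0059). The phosphatase DUSP13 (4.35, SE 0.603), the actin-binding ABRA (4.02, SE 0.79), the ubiquitin ligase TRIM54 (3.98, SE 0.805) and slow troponin I (TNNI1, 4.000, SE 0.904) had adjusted p from 0.00293 to 0.0165. Absence of overlap between the durations was a condition for entering these 12, so it is no result about them. The ventricular myosins MYH7 (3.72, SE 0.91), MYL3 (4.26, SE 1.07) and MYL2 (4.06, SE 1.13) overlapped, with 7-week library 3 at 715 CPM of MYH7, 234 CPM of MYL3 and 226 CPM of MYL2.

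Genes of atrial muscle showed a different order of libraries. MYL4, the atrial light chain, was at 128, 518, 2315 and 183 CPM at 7 weeks and 52.01, 399, 0.326 and 50.2 CPM at 2 weeks, with the highest value in 7-week library 3, and did not pass (log2 fold change 2.75, SE 1.44, adjusted p = 0.194). NPPA, the natriuretic peptide ANP, was at 435, 1336, 1985 and 216 CPM against 13.5, 47.7, 0.0652 and 37.4 CPM (log2 fold change 5.49, SE 1.298, adjusted p = 0.0192), and its call was lost without 2-week library 1 (adjusted p = 0.0628). Left ventricular myocardium had 0.235 to 26.9 CPM of MYL4, a level that 7 of the 8 cusps exceeded. Of 4 tested ventricular genes 3 rose and 1, HEY2, fell, and of 7 tested atrial genes 1 rose and 1, the potassium channel KCNA5, fell (log2 fold change -1.89, SE 0.35, adjusted p = 0.00817). TRDN, triadin (3.78, SE 0.67), HRC, a calcium-binding protein of the sarcoplasmic reticulum (3.45, SE 0.64), and ACTN2, sarcomeric actinin (3.08, SE 0.58), rose without overlap.

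Leaving out libraries changed the heart muscle counts. The cardiomyocyte list had 10 called members without 7-week library 4, 9 without 2-week library 1, 10 without 2-week library 3 and 12 without 2-week library 4, and 3 of 28 without 7-week libraries 2 and 4 together. The ventricular list had 0 higher members without 7-week library 4, 2-week library 1 or 2-week library 3, and 1 without 2-week library 2 or 2-week library 4. The atrial list had 2 higher without 7-week library 2 or 2-week library 4, 4 higher and 2 lower without 2-week library 2, and 0 higher without 2-week library 1. MYH7 lost its call without 7-week library 4, 2-week library 1 or 2-week library 3 (adjusted p from 0.0545 to 0.0597), MYL3 without 7-week library 4, 2-week library 1, 2-week library 2, 2-week library 3 or 2-week library 4 (adjusted p from 0.0512 to 0.065) and MYL2 without 7-week library 2, 7-week library 4, 2-week library 1, 2-week library 2, 2-week library 3 or 2-week library 4 (adjusted p from 0.0617 to 0.089).

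Mitochondrial genes rose with the heart muscle genes. Of 45 tested oxidative phosphorylation genes 40 rose and 0 fell, with a median of 1.46. NDUFA4, a subunit of the respiratory chain, was at 138, 489.9, 292 and 363 CPM at 7 weeks and 65.7, 119.8, 65.1 and 75.6 CPM at 2 weeks (log2 fold change 2.13, SE 0.44, adjusted p = 0.0126). COX5A, a subunit of cytochrome oxidase, was at 164, 807, 306 and 469 CPM against 67.2, 122, 69.1 and 86.6 CPM (log2 fold change 2.53, SE 0.54, adjusted p = 0.0134). In both the highest library was 7-week library 2 and the lowest of the 7-week group was library 1, the order of the cardiomyocyte share. NDUFA5 (log2 fold change 1.44, SE 0.29, adjusted p = 0.0118) and UQCRC2 (log2 fold change 1.44, SE 0.29, adjusted p = 0.0118) followed. The genes COX5A and UQCRC2 are listed under gene numbers that RefSeq pairs with these symbols.

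In myocardium 35 of the 45 had a mean at least 2 times that of the 8 valves, against 8.96% of all tested genes. For all 40 called members the control median lay nearer the 7-week level, against 37.2% of all genes called higher. The count was 16 without 7-week library 4, 7 without 2-week library 1, 23 without 2-week library 2, 11 without 2-week library 3 and 18 without 2-week library 4. Without 7-week libraries 2 and 4 together it was 0, with a median of 0.73, and with the cardiomyocyte score in the model it was 0, with a median of -0.07. What share of the rise came from muscle RNA was not tested.

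Of 27 tested fatty acid oxidation genes 15 rose and 0 fell, with a median of 1.04. For 21 of the 27 the myocardium mean was at least 2 times that of the 8 valves, against 8.96% of all tested genes. FABP3, the fatty acid carrier of heart muscle, was at 40.3, 201, 175 and 299 CPM against 8.44, 36.05, 19.1 and 20.5 CPM (log2 fold change 3.22, SE 0.63, adjusted p = 0.0102). HADHB, a subunit of the mitochondrial trifunctional protein, was at 109.7, 152, 163 and 312 CPM against 62.1, 88.96, 57.7 and 58.2 CPM (log2 fold change 1.53, SE 0.33, adjusted p = 0.0143). UCP2, a mitochondrial carrier that leukocytes express, is low in myocardium (4.37 to 16.3 CPM) and was at 75.5, 64.96, 73.3 and 111 CPM against 15.01, 31.2, 10.4 and 23.1 CPM (log2 fold change 2.09, SE 0.302, adjusted p = 0.00349). UCP3, the carrier of striated muscle, rose from a low level, at 3.198, 2.48, 2.92 and 8.305 CPM against 1.01, 1.66, 0.457 and 0.6502 CPM (log2 fold change 2.22, SE 0.51, adjusted p = 0.018), and its call was lost without 7-week library 4, 2-week library 1 or 2-week library 3 (adjusted p from 0.0501 to 0.0527). The list's count was 7 without 7-week library 2, 3 without 7-week library 4, 2-week library 1 or 2-week library 3, 4 without 2-week library 4, and 1 without 7-week libraries 2 and 4 together.

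**Figure D5:**
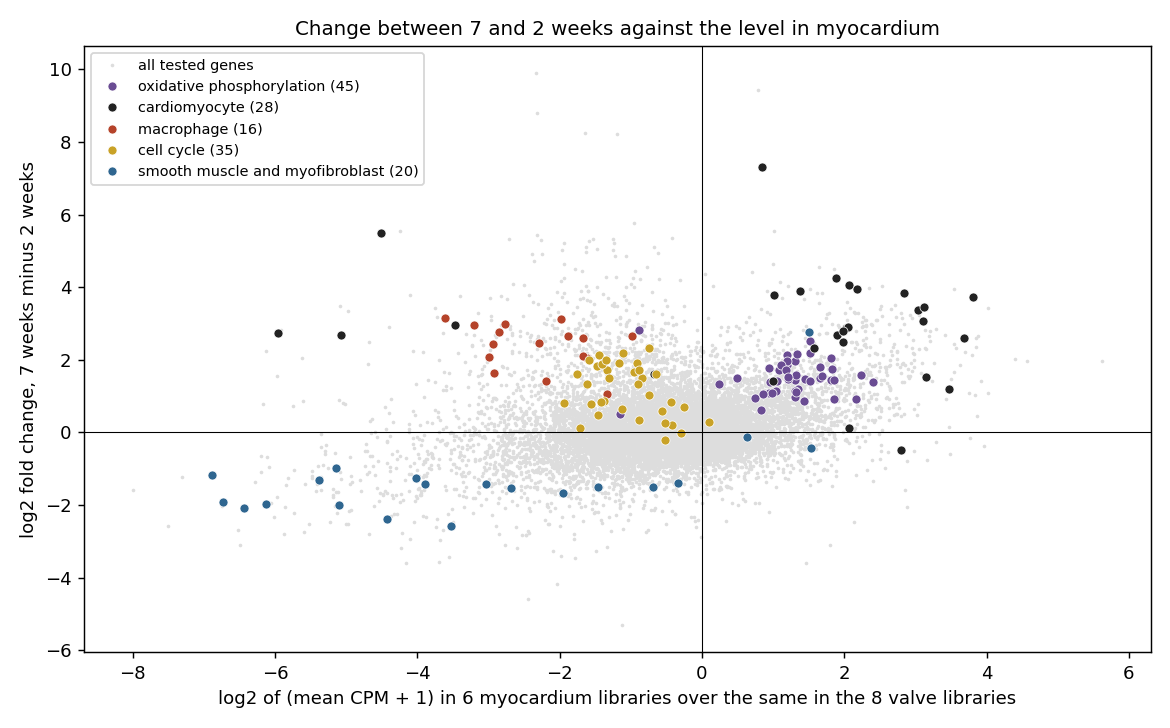
Log2 fold change between 7 and 2 weeks (y) against the log2 ratio of mean CPM + 1 in 6 myocardium libraries over the 8 valve libraries (x), for all 14960 tested genes (grey) and 5 lists. Oxidative phosphorylation genes lie mostly right of 0, that is higher in myocardium, while macrophage genes (16 of 16) and cell cycle genes (33 of 35) lie above 0 and mostly left of it.

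Of 25 tested hypoxia and glycolysis genes 7 rose and 1 fell, where 11.8% and 8.29% of all tested genes did, with a median of 0.41. VEGFA, the vascular growth factor, was at 162, 92.8, 128 and 165 CPM at 7 weeks and 39.8, 77.9, 29.7 and 38.7 CPM at 2 weeks (log2 fold change 1.59, SE 0.26, adjusted p = 0.00525), and it is abundant in myocardium, at 373 to 927 CPM. PKM, pyruvate kinase, was at 604, 878, 760.5 and 852 CPM against 391, 389, 339 and 427 CPM (log2 fold change 1.08, SE 0.24, adjusted p = 0.0169), and its call was lost without 2-week library 3 (adjusted p = 0.0525). PGK1 (log2 fold change 0.69, SE 0.16, adjusted p = 0.0176) lost its call without 7-week library 4, 2-week library 1 or 2-week library 4 (adjusted p from 0.0518 to 0.0662). The member that fell was PFKP, the platelet-type phosphofructokinase, at 89.3, 34.4, 85.2 and 59.6 CPM against 223, 209, 238 and 195 CPM (log2 fold change -1.72, SE 0.22, adjusted p = 0.00231), a gene low in myocardium (5.48 to 12.3 CPM) and higher in aorta (214 to 329 CPM). The list's higher count was 2 without 7-week library 4 or 2-week library 3 and 3 without 2-week library 1 or 2-week library 4, and without 7-week library 1, 9 rose and 2 fell. In the fit of 6 libraries 1 rose and 1 fell.

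Red cell genes rose together. All 7 tested erythroid genes were higher at 7 weeks, with a median of 2.68. The haemoglobin chain HBA was at 5548, 2168, 3471 and 4212 CPM at 7 weeks and 544, 612, 279 and 869 CPM at 2 weeks (log2 fold change 2.74, SE 0.34, adjusted p = 0.00231), and HBB2 at 4984, 1763, 2936 and 3432 CPM against 483, 598, 266 and 699.5 CPM (log2 fold change 2.68, SE 0.32, adjusted p = 0.00218). Globin genes have near-identical copies, so reads may have been split between them. ALAS2, the first enzyme of haem synthesis in red cells, was at 163, 35.02, 69.3 and 96.1 CPM against 12.7, 19.3, 7.83 and 16.96 CPM (log2 fold change 2.65, SE 0.37, adjusted p = 0.00293). Library 1 was the highest of the 7-week group in each and library 2 the lowest. For these 7 genes neither the control nor the 4-week median lay nearer the 7-week level. Over all genes called higher, the control median did in 37.2% and the 4-week median in 80.8%. Leaving out 1 library gave 5 to 7 called members, and how much blood each cusp held was not measured.

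Of 23 tested endothelial genes 8 rose and 1 fell, with a median of 0.82. Of all tested genes 11.8% rose and 8.29% fell. ENG, endoglin, was at 238, 224, 201 and 287 CPM at 7 weeks and 90.9, 129, 81.5 and 121 CPM at 2 weeks (log2 fold change 1.23, SE 0.202, adjusted p = 0.00527). VWF, von Willebrand factor, overlapped at 360.4, 187, 142 and 295 CPM and 87.8, 152, 49.8 and 77.7 CPM (log2 fold change 1.46, SE 0.34, adjusted p = 0.0186), and its call was lost without 7-week library 4, 2-week library 1 or 2-week library 4 (adjusted p from 0.0506 to 0.0564). The VEGF receptor FLT1 (log2 fold change 1.26, SE 0.29, adjusted p = 0.0184) lost its call without 7-week library 4 (adjusted p = 0.0578), and the vessel factor EGFL7 (log2 fold change 1.34, SE 0.32, adjusted p = 0.0191) without 7-week library 4 or 2-week library 1 (adjusted p from 0.0511 to 0.0548). Myocardium had 211 to 365 CPM of ENG and 179 to 353 CPM of VWF. The member that fell was the junction protein ESAM (log2 fold change -0.54, SE 0.14, adjusted p = 0.0267), a call lost without 7-week library 3, 7-week library 4, 2-week library 1 or 2-week library 3 (adjusted p from 0.054 to 0.076). The list's higher count was 1 without 7-week library 4, 2 without 2-week library 1 and 5 without 2-week library 3 or 2-week library 4, and without 7-week library 3, 9 rose and 0 fell. In myocardium 9 of the 23 (39.1%) had a mean at least 2 times that of the 8 valves, against 8.96% of all tested genes. Without genes at least 2 times higher in myocardium than in 2-week valves 1 of 8 tested members rose and 1 fell. That filter is set by the 2-week level and so leaves out genes low at 2 weeks more readily. Part of the loss of rises is therefore built in. Without 7-week libraries 2 and 4 together 1 of 23 rose and 0 fell.

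Markers of interstitial cells and fibroblasts moved little. Of 20 tested 3 fell and 0 rose, where 8.29% of all tested genes fell and 11.8% rose, with a median of -0.14. VIM, vimentin, was at 4376, 2353, 3699.6 and 3520.3 CPM at 7 weeks and 6508, 5785, 7098 and 6137 CPM at 2 weeks (log2 fold change -0.88, SE 0.23, adjusted p = 0.0265). FAP, a protease of activated fibroblasts, was at 153, 50.05, 132 and 102 CPM against 195, 224, 253 and 183 CPM (log2 fold change -1.01, SE 0.24, adjusted p = 0.0191). The transcription factor MSX1 overlapped (log2 fold change -1.26, SE 0.37, adjusted p = 0.0398). VIM lost its call without 7-week library 3, 7-week library 4, 2-week library 1, 2-week library 3 or 2-week library 4 (adjusted p from 0.0525 to 0.0765), FAP without 7-week library 4 or 2-week library 3 (adjusted p from 0.0552 to 0.0597) and MSX1 without 7-week library 1, 7-week library 2, 7-week library 4, 2-week library 1, 2-week library 3 or 2-week library 4 (adjusted p from 0.0575 to 0.105). None of the list was called without 7-week library 4 or 2-week library 3, 1 fell without 2-week library 4, and 2 fell and 1 rose without 7-week library 2. In the 6-library fit 0 were called.

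Smaller lists held single genes that changed. Of 9 tested mesothelial and epithelial genes 3 rose and 0 fell. EPCAM, an epithelial adhesion molecule, was at 2.15, 3.79, 2.98 and 8.06 CPM against 0.0774, 0.133, 0 and 0.3001 CPM (log2 fold change 4.96, SE 0.74, adjusted p = 0.00392), and keratin 18 (KRT18) at 3.33, 10.2, 14.8 and 10.1 CPM against 0.697, 1.93, 0.718 and 1.901 CPM (log2 fold change 2.95, SE 0.53, adjusted p = 0.00745). Keratin 19 (KRT19) overlapped (log2 fold change 2.21, SE 0.65, adjusted p = 0.0402), and its call was lost without 7-week library 2, 7-week library 3, 7-week library 4, 2-week library 1, 2-week library 2 or 2-week library 3 (adjusted p from 0.0541 to 0.105). The mesothelial gene MSLN and the other 5 members did not pass, and without 7-week libraries 2 and 4 together 1 of 11 rose.

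Of 3 tested melanocyte genes MLANA rose, at 4.699, 4.02, 4.24 and 8.55 CPM against 0.619, 0.531, 0.718 and 1.1004 CPM (log2 fold change 2.86, SE 0.38, adjusted p = 0.00259). Of 13 Schwann cell and neural genes NCAM1 fell (log2 fold change -0.74, SE 0.15, adjusted p = 0.0125) and TUBB3, neuronal tubulin, rose (log2 fold change 1.94, SE 0.57, adjusted p = 0.041), the latter with its call lost without 7-week library 1, 7-week library 2, 7-week library 3, 7-week library 4, 2-week library 1, 2-week library 2 or 2-week library 3 (adjusted p from 0.0566 to 0.107). Without 2-week library 4, 3 of these rose, and without 7-week library 1, 0 rose and 2 fell. Of 8 adipocyte genes only LEP, leptin, was called. It was lower (log2 fold change -2.84, SE 0.72, adjusted p = 0.0249), with the call lost without 7-week library 2, 7-week library 4, 2-week library 1 or 2-week library 2 (adjusted p from 0.0534 to 0.0726), and 2 adipocyte genes fell without 2-week library 3. Neither of the 2 tested mast cell genes passed.

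Stress responses were uneven. Of 19 tested NRF2 targets and antioxidant genes 7 rose and 0 fell, where 11.8% of all tested genes rose, with a median of 0.47. HMOX1, haem oxygenase, was at 31.2, 21.8, 26.9 and 47.4 CPM at 7 weeks and 5.65, 11.4, 5.81 and 13.2 CPM at 2 weeks (log2 fold change 1.86, SE 0.31, adjusted p = 0.00563). The ferritin chains FTH1 and FTL, which store iron, were at 4659, 5094, 4930.3 and 4944 CPM against 2416, 2221, 2069.7 and 2638 CPM (log2 fold change 1.13, SE 0.24, adjusted p = 0.0134) and at 1296, 1733, 1369.7 and 1706 CPM against 593, 608, 518 and 899 CPM (log2 fold change 1.302, SE 0.27, adjusted p = 0.013). All 7-week values lay above all 2-week values in these 3 genes, and control valves had 5.71 to 9.62 CPM of HMOX1. SRXN1, sulfiredoxin (log2 fold change 1.68, SE 0.41, adjusted p = 0.0216), lost its call without 7-week library 4, 2-week library 1 or 2-week library 2 (adjusted p from 0.0508 to 0.0657). The count was 3 without 7-week library 4 or 2-week library 1, 4 without 2-week library 3 and 1 without 7-week libraries 2 and 4 together.

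Of 23 tested genes of the unfolded protein and integrated stress responses 2 rose and 0 fell, with a median of -0.08. Of all tested genes 11.8% rose. SESN2 was at 8.55, 8.76, 11.5 and 9.699 CPM against 2.24, 3.98, 4.04 and 2.901 CPM (log2 fold change 1.58, SE 0.26, adjusted p = 0.00563), and TRIB3 rose from a low level (log2 fold change 1.596, SE 0.42, adjusted p = 0.0285), with its call lost without 7-week library 2, 7-week library 4, 2-week library 1, 2-week library 3 or 2-week library 4 (adjusted p from 0.0603 to 0.0733). Of 11 tested interferon response genes 0 rose and 1, IFIT2, fell, at 21.3, 16.4, 26.04 and 11.5 CPM against 29.2, 48.7, 29.8 and 27.9 CPM (log2 fold change -0.82, SE 0.25, adjusted p = 0.0463), and its call was lost without 7-week library 2, 7-week library 4, 2-week library 1, 2-week library 2, 2-week library 3 or 2-week library 4 (adjusted p from 0.0522 to 0.106). Of 39 ribosomal protein genes RPL28 alone was called, higher (log2 fold change 0.91, SE 0.28, adjusted p = 0.0471), with the call lost without 7-week library 2, 7-week library 3, 7-week library 4, 2-week library 2, 2-week library 3 or 2-week library 4 (adjusted p from 0.0797 to 0.123), and 3 were called without 7-week library 1.

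Immediate early genes, which are switched on fast by signals and also by tissue handling, varied widely within the groups. Of 20 tested 3 fell and 0 rose, where 8.29% of all tested genes fell and 11.8% rose, with a median of -0.36. DUSP1, a phosphatase of stress kinases, was at 102, 44.01, 75.7 and 48.9 CPM at 7 weeks and 140.2, 198, 685 and 340.2 CPM at 2 weeks (log2 fold change -2.38, SE 0.49, adjusted p = 0.0121). ATF3 was at 53.7, 42.1, 43.7 and 47.2 CPM against 281, 53.8, 225 and 86.4 CPM (log2 fold change -1.81, SE 0.499, adjusted p = 0.0325), and JUN at 201, 60.7, 153 and 88.8 CPM against 247, 204, 263 and 243 CPM (log2 fold change -0.98, SE 0.27, adjusted p = 0.0319). The groups did not overlap, but ATF3 lost its call without 7-week library 2, 7-week library 3, 7-week library 4, 2-week library 1 or 2-week library 3 (adjusted p from 0.0588 to 0.0883) and JUN without 7-week library 2, 7-week library 4, 2-week library 1, 2-week library 3 or 2-week library 4 (adjusted p from 0.0565 to 0.0943). The list had 6 lower members without 7-week library 1 or 2-week library 2, 1 lower without 7-week library 2, 7-week library 4, 2-week library 1 or 2-week library 3, and 2 lower without 2-week library 4, with 0 to 2 higher in these fits. The 6-library fit had 1 higher and 0 lower.

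Besides KL, SOST and BMP3, the 12 largest falls were in genes of varied function. All 12 were taken from called genes whose groups did not overlap, so lack of overlap is no result about them. OSR1, a transcription factor of mesenchyme, was at 49.9, 17.3, 34.1 and 14.4 CPM at 7 weeks and 321, 208, 218 and 214 CPM at 2 weeks (log2 fold change -3.104, SE 0.35, adjusted p = 0.00178). TES, testin, a focal adhesion protein, was at 184, 59.8, 108 and 41.2 CPM against 856, 562, 605 and 616 CPM (log2 fold change -2.802, SE 0.39, adjusted p = 0.00293). COL13A1, a transmembrane collagen, was at 90.1, 85.1, 49.97 and 40.5 CPM against 458, 207, 712 and 367 CPM (log2 fold change -2.69, SE 0.47, adjusted p = 0.00662). In these 3 genes the highest 7-week library was below the lowest 2-week library by more than 2 times. NTF3, neurotrophin 3, was at 3.46, 2.01, 5.77 and 1.697 CPM against 18.4, 21.9, 22.7 and 27.01 CPM (log2 fold change -2.799, SE 0.33, adjusted p = 0.00203), and RANBP3L at 8.81, 2.01, 7.89 and 5.94 CPM against 45.97, 34.7, 66.2 and 37.5 CPM (log2 fold change -2.95, SE 0.36, adjusted p = 0.00219).

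NIPAL4 was at 4.44, 0.947, 2.32 and 2.12 CPM against 36.6, 12.3, 40.1 and 12.8 CPM (log2 fold change -3.43, SE 0.54, adjusted p = 0.00461). Single libraries moved the other 3. The transcription factor TFCP2L1 was at 27.4, 3.52, 5.87 and 5.902 CPM at 2 weeks, with library 1 far above the rest, and at 1.63, 0.947, 1.39 and 0.788 CPM at 7 weeks (log2 fold change -3.19, SE 0.69, adjusted p = 0.0142). Its log2 fold change was -2.09 without 2-week library 1. The ATP-gated channel P2RX1, at 117, 12.7, 23.4 and 23.2 CPM against 4.24, 3.67, 10.47 and 5.27 CPM at 7 weeks (log2 fold change -2.93, SE 0.72, adjusted p = 0.0221), had -1.74 without that library, and its call was lost without 7-week library 2 or 7-week library 4 (adjusted p from 0.0527 to 0.0636). ST6GAL2, a sialyltransferase, was at 36.7, 2.13, 13.1 and 2.73 CPM against 144, 91.5, 61.97 and 36.9 CPM (log2 fold change -2.73, SE 0.77, adjusted p = 0.0352), and its call was lost without 7-week library 2, 7-week library 3, 7-week library 4, 2-week library 1, 2-week library 2 or 2-week library 3 (adjusted p from 0.0581 to 0.0939). OSR1, TES, RANBP3L and TFCP2L1 were expressed in aorta, at 150.3 to 355, 941 to 1064, 53.7 to 94.4 and 14.8 to 25.7 CPM, and low in myocardium, at 0.173 to 1.06, 3.29 to 7.404, 0.502 to 2.76 and 0 to 0.353 CPM.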

How the data were processed

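RNA of single cusps was prepared with the NEBNext Ultra II directional kit and sequenced as single-end reads on an Illumina instrument, per the labels' protocols. The deposited tables hold expected counts per gene that the authors estimated with RSEM 1.3.3 after alignment with STAR 2.7.8a, per the submitters' processing notes, which also name FastQC 0.11.9, edgeR 3.42.4 and Trim Galore 0.6.6. Which build, gene models and strand setting they used is not stated in the sources at hand, so overlapping and antisense genes cannot be told apart. The valve table used is the one from which the authors had taken out 346 genes as myocardial; of these 195 could be tested in the table with all genes, where 51 were higher at 7 weeks and 0 lower, with a median log2 fold change of 1.22.

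Expected counts of the 8 libraries were rounded to whole numbers (10% of the values were not whole) and tested with edgeR 4.0.16 (limma 3.58.1, R 4.3.3). Genes were kept by filterByExpr (at least 10 counts in enough libraries and 15 in all), scaled by TMM, fitted by quasi-likelihood with group only, and adjusted over all 14960 genes. DESeq2 1.42.0 was an alternative. Scores used as covariates were mean log2(CPM + 1) over a list. On simulated counts with 14736 genes tested, 82% of 100 4-fold and 23% of 100 2-fold changes were recovered at 5 wrong calls. Far fewer genes changed there than were called in the data (3007), and the adjusted threshold depends on that number. These shares therefore do not give the power here, and how many 2-fold changes were missed was not measured. Low totals limit genes near 1 CPM most, and p-values weigh the difference between the groups against the spread between these animals.

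The named genes and the 37 lists were chosen with earlier results of these data known. Named were the 12 largest changes in each direction among called genes with a symbol, a mean of at least 5 CPM and no overlap between the groups, up to 4 members with the smallest p in each list with at least 3 tested members, and a short set of valve genes. Outside this rule, APOE, GPNMB, MMP1, MMP13, NOS2, MRC1, ESAM, FGF23, TGFB1, TGFBI, TGIF1, TGFBR1, SMAD7 and SKIL were named after their values were seen. Some genes that the rule names, or that the lists count, are not reported here. Of 803 list entries 50 were absent from the table, 34 were matched by gene number through RefSeq (assembly mOryCun1.1) and 682 were tested. Same-numbered libraries had correlated deviations of -0.158 to 0.148, so the numbers do not pair animals. No column of another sample was used (0 left over).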

Additional observations from a re-analysis of the deposited data

Results flagged for a closer look

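Of 330 groups of 4 libraries checked, over the named genes and the marker shares, 8 (2.42%) held 1 library that stood far from the other 3 by Dixon's test, where chance gives about 1 in 20. In 2-week library 1, OSR1 was at 321.1 CPM, with the other 3 at 208.4 to 218.1 CPM. LSS was at 62.45 CPM there, with the others at 51.53 to 53.04 CPM. In 2-week library 2, HADHB was at 88.96 CPM (others 57.67 to 62.07 CPM) and IFIT2 at 48.73 CPM (others 27.86 to 29.81 CPM). The same library had 0.2634% of its counts in the atrial muscle list, and the others had 0.02677% to 0.04894%. In 7-week library 2, which was the shallowest and had the largest heart muscle share, 3 genes were low. FABP5 was at 47.92 CPM (others 83.03 to 92.16 CPM), SKI at 56.44 CPM (others 122.8 to 130 CPM) and LPCAT3 at 30.05 CPM (others 39.42 to 40.13 CPM).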

How the results depend on the processing

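Calls shared between the 8-library fit and another setting all kept their direction, which fits on mostly the same libraries make hard to avoid. With the cardiomyocyte score 1 call was shared and with the smooth muscle score 0. RLE factors gave 3034 calls, DESeq2 4242, no filter 2829, all 16 valve libraries in 1 fit 4175 (1910 lower), the table with all genes 3062 and the replicate block 2310, although the numbers do not pair animals. The cardiomyocyte score as a covariate left 1 call (1 higher, 0 lower), the atrial score 280 (198 and 82) and the smooth muscle score, added after seeing the data, 0 (0 and 0). Without genes at least 2 times higher in myocardium than in 2-week valves there were 2185 calls, 1177 of them higher. That filter leaves out genes low at 2 weeks more readily, so its loss of higher calls is partly built in. Without 7-week libraries 2 and 4 together, also added later, there were 728 (475 and 253). Leaving out 1 library gave 1458 to 4499 calls, 867 to 2309 higher and 579 to 2190 lower; a fit with fewer animals has less power, and why the others moved was not tested. The heart muscle share differed by 2.06 to 3.52 points without 1 library (exact permutation p = 0.0571 without any 2-week library) and by 1.32 for ventricular genes alone. Of the values for named genes under all settings, 2252 kept direction and side of the threshold, 646 lost the call, 12 gained it and 54 changed sign. Sign changes with the smooth muscle score were ENO3 -0.32, ACTA1 -0.49, DES -0.15, HRC -0.63, ACTN2 -0.19, TRIM54 -1.59, TNNI1 -1.78, MYH7 -1.81, MYL3 -3.22, MYL2 -3.80, UQCRC2 -0.13, NDUFA4 -0.18, COX5A -0.56, HADHB -0.16, CXCR2 -0.0791, S100A8 -0.63, EGFL7 -0.0513, SRXN1 -0.37, MGP -0.52, TFCP2L1 0.22, P2RX1 0.28, ST6GAL2 1.27, JUN 0.46, HMGCS1 0.0691, MSX1 0.16, VCAN 0.49, ENPP1 0.11, SOX9 0.53, FGF23 -1.997 and TNFRSF11B 0.021. List medians that turned with it were lymphocyte -0.37, neutrophil -0.0791, cholesterol synthesis 0.12, NRF2 -0.10, interferon 0.0858, lysosome -0.106, unfolded protein 0.0389, hypoxia -0.20, oxidative phosphorylation -0.46, fatty acid oxidation -0.42, cardiomyocyte -0.31 and ventricular -2.52. With the cardiomyocyte score NDUFA4 (-0.0031), COX5A -0.0747, MYL2 -0.74, MYL4 -0.78, COL1A1 -0.15, JUN 0.12, ATF3 0.49, HMGCS1 0.0418, VCAN 0.19, FGF23 -0.14 and TNFRSF11B 0.10 turned, as did the medians of the lymphocyte (-0.0032), cholesterol synthesis (0.0728), vitamin D (-0.0834), immediate early (0.49), osteogenic (-0.29), unfolded protein (0.16), oxidative phosphorylation (-0.0747), fatty acid oxidation (-0.12), cardiomyocyte (-0.24), ventricular (-0.30) and atrial (-0.72) lists. With the atrial score MYL4 (-0.30), COL1A1 (-0.13) and the atrial (-0.30), mesothelial (-0.34), immediate early (0.0894), osteogenic (-0.19), unfolded protein (0.0283) and neural (0.12) medians turned, and with no filter COL1A1 (-0.0078) and the melanocyte median (-0.0104). The neural median, -0.0412 with all 8 libraries, also turned with the replicate block (0.16) and without myocardium-rich genes (0.00897). The values near 0 turned when libraries were left out: with 1 left out MGP ran from -0.0851 to 0.37, COL1A1 from -0.14 to 0.25 and NOTCH1 from -0.99 to 0.17, and without 7-week libraries 2 and 4 MGP was -0.0949. The interferon, lysosome and neural medians turned without those 2 libraries, and they and the osteogenic, immediate early and unfolded protein medians without 1 or more single libraries.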
